A study of Mus musculus with 6 samples.

Results

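The genes described here were the p53 family (Trp53, Trp63 and Trp73) and the regulators that set p53 activity, which were the ubiquitin ligases Mdm2 and Rchy1, the Mdm2 partner Mdm4, the phosphatase Ppm1d and the stress protein gene Trp53inp1. These 8 genes were taken by symbol from the 47719 gene identifiers measured in each mouse, and each symbol matched 1 identifier. RNA came from the whole prostate of 6 mice of the strain B6.129S4-Trp53tm3.1Tyj/J, with 2 mice in each genotype. Wildtype mice (Trp53+/+, mice 39 and 41) had 0 mutant alleles, heterozygous mice (Trp53R270H/+, mice 37 and 40) had 1 and homozygous mice (Trp53R270H/R270H, mice 47 and 49) had 2. All mice, the wildtype controls included, were irradiated with 5 Gy over the whole body at an age of about 3 months, and the prostate was taken 6 h afterwards. No unirradiated mouse was compared, so the values are levels after irradiation and not responses to it. Which cells of the animal carried the mutation is not given in the labels. The mice were separate animals, and no batch, cage or litter is given in the labels.

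In unstressed cells, p53 is kept scarce by Mdm2, which attaches ubiquitin to it and marks it for the proteasome. DNA damage breaks this hold, and active p53 then switches on genes that arrest or kill the cell, among them Mdm2 itself, so that p53 limits its own activity through a feedback loop. Ppm1d (also called Wip1), Trp53inp1 and Rchy1 (also called Pirh2) are other p53 target genes that act back on p53, and Mdm4 binds p53 and Mdm2. Trp63 and Trp73 encode relatives of p53 that recognize similar DNA, and p63 is a known marker of the basal layer of the prostate epithelium.

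Residue 270 of the mouse p53 protein lies in its DNA-binding domain. In the reference, its codon lies on chromosome 11 of GRCm38 from 69589607 to 69589609, in exon 8 of 11 of Trp53. The stretches of 33 bases below were taken from GENCODE transcripts to show the mutated position beside its counterparts in the other family members, with that codon in capitals:
Trp53: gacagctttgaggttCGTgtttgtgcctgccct
Trp63: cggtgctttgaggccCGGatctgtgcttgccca
Trp73: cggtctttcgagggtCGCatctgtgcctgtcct
These are the reference sequences, read on the coding strand, at chr11:69589592-69589624 (plus strand), chr16:25866094-25866126 (plus strand) and chr4:154064404-154064436 (minus strand), and each lies within exon 8 of its transcript. The protein alignment placed residue 270 of p53 opposite residue 343 of the longest p63 and residue 292 of the longest p73, and all 3 codons encode the same residue. Of the 33 bases, 22 were shared between Trp53 and Trp63 and 21 between Trp53 and Trp73. The R270H change itself is not visible in gene-level values, so the genotypes rest on the labels alone.

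Values are FPKM (fragment counts corrected for gene length and for the depth of the library), so that levels of different genes can be set side by side. The sum of FPKM over all genes was between 518671 and 636407 per mouse, and between 13452 and 13827 genes reached an FPKM of 1. Fragment counts were not available. Relative to mouse 39, an estimate of depth from ratios of low FPKM values was between 0.785 and 1.07. Mice 39 and 47 stood apart in tissue markers. The 6 seminal vesicle markers summed to an FPKM of 3479 in wildtype mouse 39 against 35131 to 56512 in the other mice. In homozygous mouse 47, the prostate luminal gene Pbsn was at an FPKM of 257, against 7329 to 11512 in the other mice. Svs2, Svs4 and Svs5 were listed at 0 in mouse 47, and Svs2 also in homozygous mouse 49. The luminal gene Tgm4 was also low in mouse 47, at 131 against 3179 to 9060 in the other mice. The 8 prostate luminal markers summed to 30513 to 64597 per mouse, and none was at 0 in all mice. In mouse 47 this sum was 36281, of which Spink1 alone made up 34822. The 10 skeletal muscle markers summed to 1642 and 2398 (wildtype), 4579 and 4826 (heterozygous) and 5533 and 4892 (homozygous), so they were higher in all mutant mice. Smooth muscle markers summed to 1644 to 2672 and leukocyte markers to 10.9 to 23.0 per mouse. The part of these differences between samples in the results below was not tested. The fold changes of Mdm2, Trp53inp1 and Trp53 are also given without mouse 39 and without mouse 47, each left out singly. Those of Trp53 and Ppm1d are also given without both mice together. In bulk tissue, fewer cells of a type and less RNA per cell cannot be told apart.

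Of the 8 genes, 2 both fell with the number of mutant alleles and passed the tests of homozygous against wildtype mice and of the slope per allele. Mdm2 and Trp53inp1 were lower in homozygous than in wildtype mice by 1.30 and 2.07 on the log2 scale. Trp53 itself differed little between genotypes, and Mdm4, Rchy1 and Ppm1d showed smaller differences that did not pass. The values of Ppm1d also fell in allele order without overlap, as did those of 4.98% of all tested genes. Trp63 was the only one of the 8 with higher values in both homozygous mice than in all other mice. Trp73 was near the lower limit of measurement. In the fit with limma on log2(FPKM + 0.1), 7 members had a mean FPKM of at least 1 and were tested among 13818 genes, while Trp73 was not. With Benjamini-Hochberg adjustment, 2 of the 7 had an adjusted p-value under 0.05 between homozygous and wildtype mice, both lower, against a background of 0.261% of all tested genes called lower in that comparison. In the same comparison, 2483 genes (18%) and 3 members had an unadjusted p under 0.05. The limma test of any difference among the 3 genotypes called 0 members, with an adjusted p of 0.0897 for Mdm2 and 0.122 for Trp53inp1, against 14 genes (0.101%) of all tested. At an unadjusted p under 0.05 that test gave 3 members, Trp63, Mdm2 and Trp53inp1, and 1595 genes (11.5%). For heterozygous against wildtype mice, 0 members and 0 genes (0%) passed adjustment in limma. At an unadjusted p under 0.05 there were 949 genes (6.87%), and 3 members, Mdm2, Mdm4 and Trp53inp1, all lower, where 2.21% of tested genes had such a p in that direction. For homozygous against heterozygous mice, 0 members and 2 genes (0.0145%) passed in limma. At an unadjusted p under 0.05 there were 883 genes (6.39%), with 2 members lower (4.42% of tested genes) and 1 higher (1.97%). Of the 7 tested members, 4 were lower in both homozygous than in both wildtype mice, as were 28.7% of all tested genes, and 1 was higher, as were 21.3%.

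**Figure D1:**
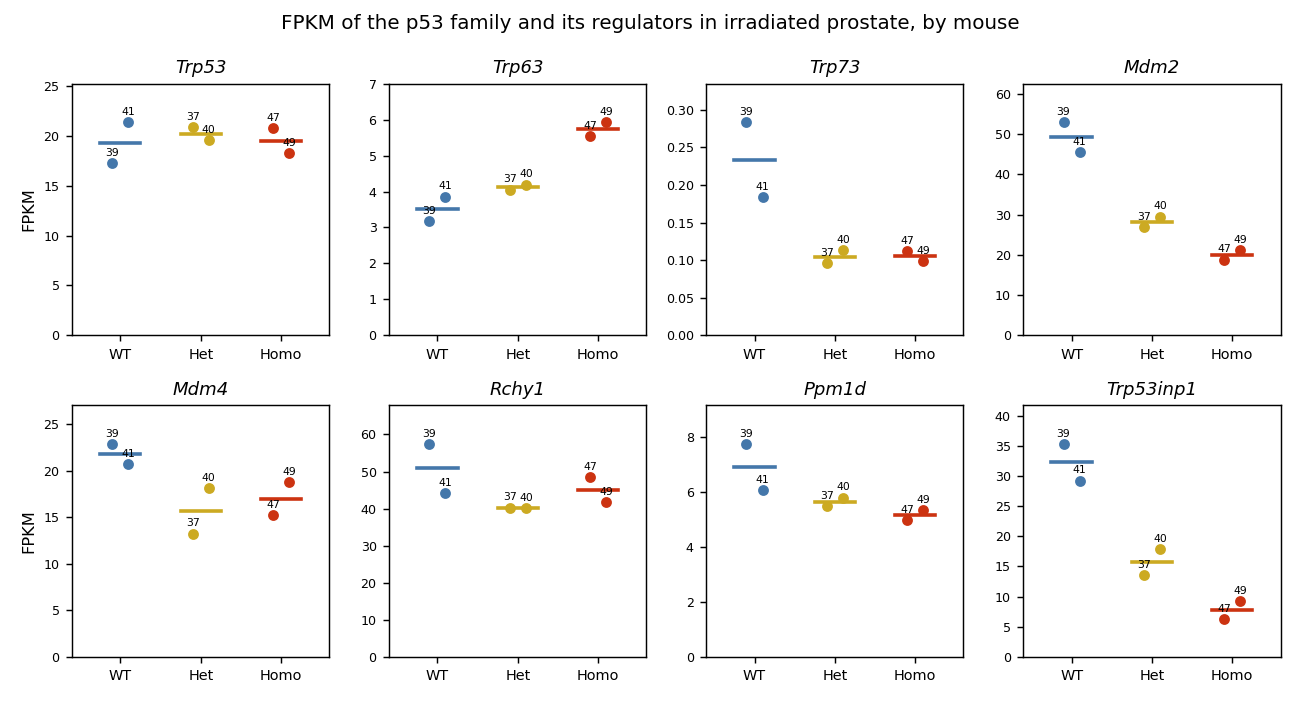
FPKM of each of the 8 genes (vertical axes, starting at 0) in wildtype (WT), heterozygous (Het) and homozygous (Homo) mice. Points are mice, labelled with the animal's number, and lines are the mean of the 2 mice. Mdm2, Trp53inp1 and, in smaller steps, Ppm1d step down from genotype to genotype without overlap, Trp63 steps up, and Trp53 overlaps in all 3 genotypes.

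By level per length, the order of the 8 genes over all mice was Rchy1 with a mean FPKM of 45.4, Mdm2 with 32.4, Trp53 with 19.7, Trp53inp1 with 18.6, Mdm4 with 18.2, Ppm1d with 5.89, Trp63 with 4.46 and Trp73 with 0.148. Trp53 and its neighbour Trp53inp1, and Trp53inp1 and its neighbour Mdm4, differed by less than the spread between mice. The order differed between genotypes. In wildtype mice, Mdm2 at 49.2 ± 5.37 (SD, n = 2) was level with Rchy1 at 50.8 ± 9.40 (SD, n = 2). In homozygous mice, Mdm2 at 19.9 ± 1.60 (SD, n = 2) was level with Trp53 at 19.5 ± 1.81 (SD, n = 2).

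Trp53 (ENSMUSG00000059552) encodes p53 and lies on chromosome 11 from 69580359 to 69591873. Its FPKM was 17.3 and 21.4 (wildtype), 20.9 and 19.6 (heterozygous) and 20.8 and 18.3 (homozygous), so that both mutant genotypes lay within the range of the wildtype mice. The 95% confidence interval of the log2 fold change was -0.35 to 0.39 for homozygous and -0.30 to 0.44 for heterozygous mice against wildtype, and thus excluded a change of the size seen for Mdm2. Without mouse 39 the homozygous difference was -0.13 and without mouse 47 it was -0.07 on the log2 scale, and under no setting tried did Trp53 pass adjustment.

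Trp63 (ENSMUSG00000022510) encodes p63 and lies on chromosome 16 from 25683763 to 25892102, with 8 annotated transcripts that gene-level FPKM does not separate. Its FPKM was 3.19 and 3.86 (wildtype), 4.05 and 4.19 (heterozygous) and 5.54 and 5.94 (homozygous). The values were ordered upward by allele number with no overlap, which held for 3.85% of all tested genes. Between homozygous and wildtype mice the log2 fold change was 0.69 (standard error, SE, 0.16, limma adjusted p = 0.153), so the difference did not pass adjustment. The difference of 0.23 in heterozygous mice had an adjusted p of 0.874 from limma, and was 0.094 without mouse 39 and 0.36 without mouse 41. An exact permutation test over the 90 arrangements of the 6 mice into 3 genotypes gave a two-sided p of 0.0222 for the slope of 0.35 per allele on the log2 scale, the smallest p that this test can give and one that every gene in allele order reaches.

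The sum of markers of the basal layer, where p63 is normally found, was not ordered by allele number. It was lowest in both homozygous mice. The 7 basal markers summed to an FPKM of 197 and 267 (wildtype), 200 and 199 (heterozygous) and 176 and 191 (homozygous). Krt5, a basal keratin, had an FPKM of 29.4 and 44.0 (wildtype), 34.5 and 32.5 (heterozygous) and 36.9 and 32.5 (homozygous), and these ranges overlapped. Krt15, the most abundant of the 7 and also a basal keratin, was ordered downward without overlap, with an FPKM of 93.6 and 131 (wildtype), 86.6 and 92.4 (heterozygous) and 72.4 and 81.5 (homozygous). The keratin Krt17 went the other way, with 1.46 and 1.96 in wildtype and 2.16 and 2.21 in homozygous mice. Col17a1 and Dst were lower in both homozygous than in both wildtype mice, and Krt14 and Itga6 overlapped between these genotypes. Of all tested genes, 4.98% were ordered downward without overlap, as Krt15 was. Both homozygous values lay below both wildtype values in 28.7% of all tested genes and above them in 21.3%. The ratio of Trp63 to the basal marker sum was 0.0162 and 0.0145 (wildtype), 0.0202 and 0.0210 (heterozygous) and 0.0315 and 0.0311 (homozygous), and was ordered upward as well, with Krt15 in its denominator ordered downward. Its denominator as a whole was lowest in both homozygous mice. This ratio was chosen after its parts were seen, and no test is drawn from it. Skeletal muscle markers were also higher in mutant mice, as given above, and their part in the level of Trp63 was not tested.

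**Figure D2:**
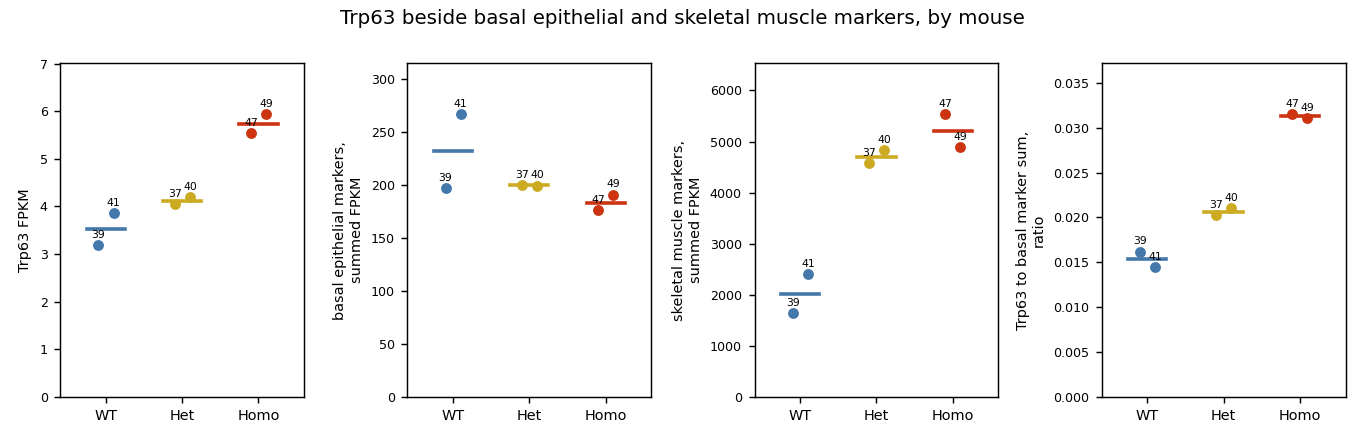
Trp63 FPKM, summed FPKM of the 7 basal epithelial and the 10 skeletal muscle markers, and the ratio of Trp63 to the basal sum, by genotype. Points are mice with their numbers, lines are means of 2 mice and vertical axes start at 0. Trp63 and its ratio to basal markers are highest in both homozygous mice, where the basal sum is lowest. The muscle sum is higher in all 4 mutant mice than in both wildtype mice.

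Trp73 (ENSMUSG00000029026) encodes p73 and lies on chromosome 4 from 154056253 to 154140208. Its FPKM was 0.284 and 0.183 (wildtype), 0.0956 and 0.114 (heterozygous) and 0.111 and 0.0988 (homozygous). Both wildtype values lay above all 4 mutant values, while heterozygous and homozygous values overlapped. Among the tested genes, which leave out Trp73, 28.7% had both homozygous values below both wildtype values. Without the filter on low values, the log2 fold change was -0.69 in both comparisons with wildtype, with adjusted p of 0.400 for homozygous and 0.825 for heterozygous mice from limma. The exact permutation test of the slope gave p = 0.0889. The pseudocount of 0.1 is close to the values of the mutant mice, so the fold change is understated.

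Mdm2 (ENSMUSG00000020184) encodes the main ubiquitin ligase of p53 and lies on chromosome 10 from 117688875 to 117710758, on the minus strand. It is known to have a second promoter at the end of intron 1, through which p53 acts. One GENCODE transcript of Mdm2 starts within that intron, and its first 300 bases held 2 matches to the p53 consensus site, a run of 20 bases, with up to 3 mismatches. The stretch that holds both is shown because it lies in the intron that is known to carry the p53-responsive promoter, with the matches in capitals:
Mdm2 intron 1: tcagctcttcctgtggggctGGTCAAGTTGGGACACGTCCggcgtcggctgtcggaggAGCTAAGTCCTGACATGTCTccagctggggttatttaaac
It covers chr10:117710047-117710144 of GRCm38 and is read on the minus strand. Each match had 3 mismatches, and the matches ended 76 and 38 bases before exon 2. The consensus reads the same on both strands, so one reading covers both. Among 32851 RefSeq promoter windows of 300 bases (GRCm38.p6, 250 bases before to 50 after a start), 6.3% held at least 1 such match and 0.4% at least 2, although these windows surround starts and are not introns. In the windows of the members, 2 such matches were found in 1 window of Trp73, 1 in a window each of Trp53 and Mdm4, and 0 in the window of Mdm2 and those of Rchy1 and Ppm1d, so that a pair of matches was not particular to the Mdm2 intron. The number of mismatches allowed was set after the stretch was seen, and a match is a description of letters only.

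The FPKM of Mdm2 was 53.02 and 45.4 (wildtype), 26.8 and 29.5 (heterozygous) and 18.8 and 21.1 (homozygous). No values overlapped between genotypes, and the order was that of the allele number, falling, as in 4.98% of all tested genes. Heterozygous mice had 57.2% and homozygous mice 40.5% of the wildtype mean. The fall of 1.30 in homozygous mice had a standard error of 0.14 and an adjusted p of 0.0399 from limma. In heterozygous mice the log2 fold change was -0.80 (SE 0.14, limma adjusted p = 0.222), and homozygous against heterozygous mice it was -0.50 (limma adjusted p = 0.707). A fit on the number of alleles gave a slope of -0.65 per allele (SE 0.07, limma adjusted p = 0.0281), which 0.333% of tested genes also passed in the falling direction. The heterozygous mean minus the midpoint of the other genotypes was -0.15 on the log2 scale, with a 95% confidence interval of -0.44 to 0.14, so a value at the midpoint was not excluded. Without mouse 39 the log2 fold change in homozygous mice was -1.19 (limma adjusted p = 0.206), and without mouse 47 it was -1.22 (limma adjusted p = 0.200). The adjusted p was also 0.180 without mouse 37, 0.190 without mouse 40 and 0.053 without mouse 49, and 0.0596 after quantile normalization, all from limma, so passing the threshold depended on these choices.

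Set against Trp53 within the same mouse, which removes any scaling shared by a library, the ratio of Mdm2 to Trp53 was 3.07 and 2.12 (wildtype), 1.28 and 1.505 (heterozygous) and 0.904 and 1.15 (homozygous). The 3 genotypes did not overlap (exact permutation p = 0.0222, two-sided, slope -0.66 per allele on the log2 scale). Mdm2 alone gave the same p, the smallest that this test can give. The test therefore cannot separate the ratio from Mdm2 itself. By these ratios, transcripts of the ligase outnumbered those of its target per length in all 4 mice with a wildtype allele and in mouse 49, but not in mouse 47.

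Mdm4 (ENSMUSG00000054387), a relative of Mdm2 that binds and inhibits p53, lies on chromosome 1 from 132959484 to 133030561. Its FPKM was 22.9 and 20.7 (wildtype), 13.3 and 18.1 (heterozygous) and 15.2 and 18.8 (homozygous). All 4 mutant values lay below both wildtype values, but the mutant genotypes overlapped. In 28.7% of all tested genes both homozygous values lay below both wildtype values. The share with both heterozygous values below as well was not counted. The log2 fold change was -0.49 in heterozygous mice (SE 0.19, limma adjusted p = 0.715) and -0.37 in homozygous mice (SE 0.19, limma adjusted p = 0.374). Without mouse 37 the heterozygous value was -0.26, and without mouse 47 the homozygous value was -0.22, or -0.14 without mouse 39 as well. The ratio of Mdm2 to Mdm4 was 2.31 and 2.19 (wildtype), 2.02 and 1.63 (heterozygous) and 1.24 and 1.12 (homozygous), again without overlap (exact permutation p = 0.0222, slope -0.47 per allele on the log2 scale). Here too Mdm2 alone already gave this p, so the test adds nothing for the ratio. By the values, the level of Mdm2 relative to its partner was lowest in the homozygous mice.

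Rchy1 (ENSMUSG00000029397) encodes a ubiquitin ligase of p53 and lies on chromosome 5 from 91948904 to 91963068. Its FPKM was 57.5 and 44.2 (wildtype), 40.3 and 40.2 (heterozygous) and 48.6 and 41.7 (homozygous), with overlap between homozygous and wildtype mice and the lowest values in both heterozygous mice. The log2 fold change was -0.16 in homozygous mice (95% confidence interval -0.57 to 0.24, adjusted p = 0.630 from limma) and -0.32 in heterozygous mice (limma adjusted p = 0.845). Without mouse 39 these values were 0.027 and -0.13, and without mouse 41 they were -0.35 and -0.51.

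Ppm1d (ENSMUSG00000020525) encodes a phosphatase that removes damage-induced phosphates from p53 and its kinases, and lies on chromosome 11 from 85311244 to 85347066. Its FPKM was 7.74 and 6.05 (wildtype), 5.47 and 5.78 (heterozygous) and 4.97 and 5.34 (homozygous). The values followed the number of alleles without overlap, like those of Mdm2, but the steps were small. In homozygous mice the log2 fold change was -0.40 (SE 0.16, limma adjusted p = 0.280), with a 95% confidence interval of -0.81 to 0.00127. The slope of Ppm1d was -0.20 per allele, with an exact permutation p of 0.0222 and an adjusted p of 0.226 from limma. Every gene in allele order reaches that exact p, the smallest this test can give, and 4.98% of tested genes fell in that order. Without mouse 39 and mouse 47 together, a choice made after seeing their markers, the log2 fold change was -0.18, and without mouse 39 alone it was -0.23.

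Trp53inp1 (ENSMUSG00000028211) encodes a stress protein that promotes p53 activity and lies on chromosome 4 from 11156431 to 11174379. Its FPKM was 35.3 and 29.2 (wildtype), 13.6 and 17.8 (heterozygous) and 6.23 and 9.27 (homozygous). It followed the allele number without overlap, and its fall was the largest of the 8 genes. Heterozygous mice had 48.7% and homozygous mice 24.0% of the wildtype mean. On the log2 scale the fold change was -2.07 in homozygous mice (SE 0.24, limma adjusted p = 0.0477) and -1.04 in heterozygous mice (SE 0.24, limma adjusted p = 0.379). The slope was -1.03 per allele (SE 0.11, limma adjusted p = 0.0258), and only 165 of 13818 tested genes had a lower log2 fold change in homozygous mice. Its heterozygous mean minus the midpoint was -0.0067 on the log2 scale (95% confidence interval -0.52 to 0.51). Without mouse 39 the change in homozygous mice was -1.93 (limma adjusted p = 0.240) and without mouse 47 it was -1.78 (limma adjusted p = 0.193). The adjusted p was 0.0611 without mouse 41, 0.193 without mouse 37, 0.201 without mouse 40 and 0.0579 after quantile normalization, all from limma.

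The ratio of Trp53inp1 to Mdm2 was 0.666 and 0.643 (wildtype), 0.508 and 0.605 (heterozygous) and 0.331 and 0.440 (homozygous). It was ordered downward by allele number. This ratio was chosen after the values were seen, and no test is drawn from it.

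**Figure D3:**
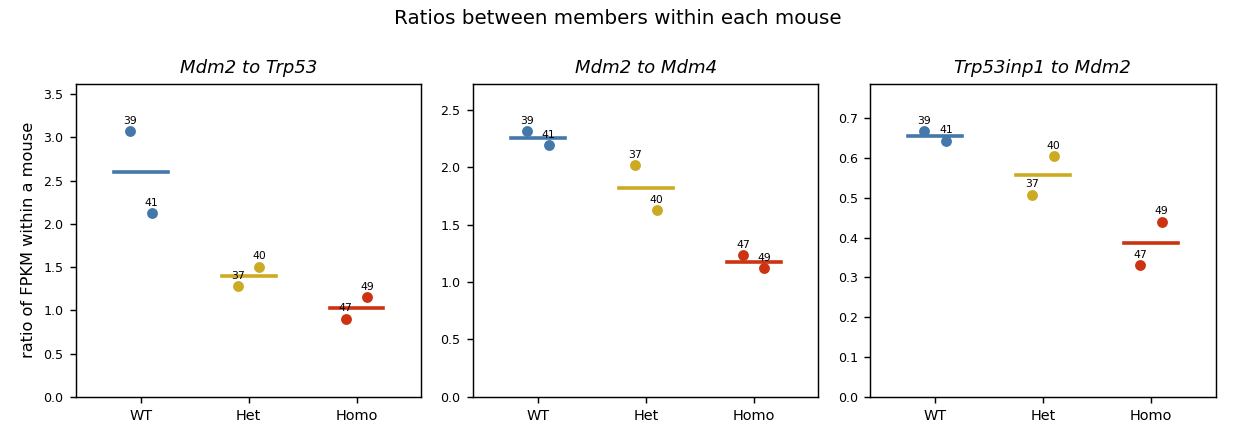
Ratio of FPKM between members within each mouse (vertical axes start at 0), for Mdm2 to Trp53, Mdm2 to Mdm4 and Trp53inp1 to Mdm2. Points are mice with their numbers and lines are means of 2 mice. All 3 ratios are highest in wildtype and lowest in homozygous mice, with no overlap between genotypes.

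**Figure D4:**
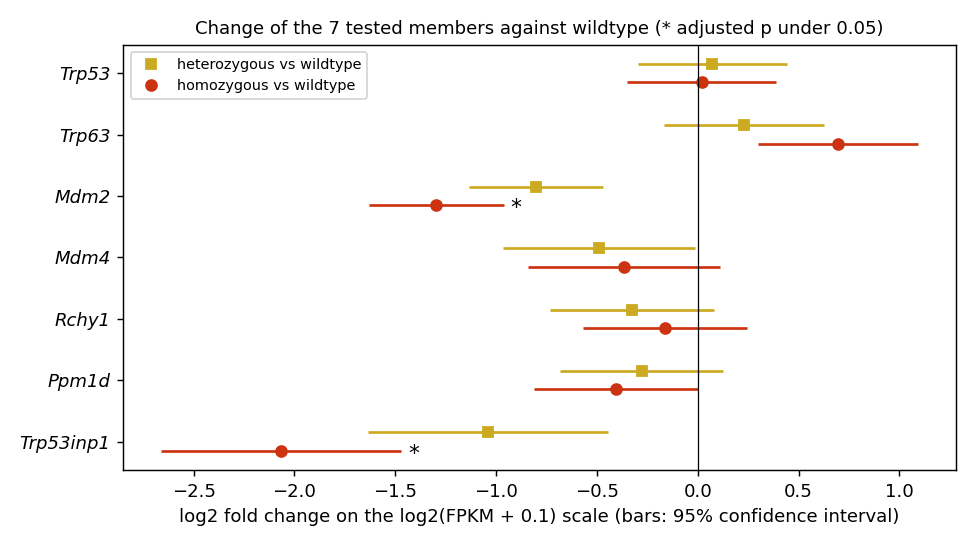
Log2 fold change of heterozygous and homozygous against wildtype mice for the 7 tested members, on the log2(FPKM + 0.1) scale, with 95% confidence intervals from limma as bars. The asterisk marks an adjusted p under 0.05, which Mdm2 and Trp53inp1 have in homozygous mice. The interval of Trp53 lies on both sides of 0 in both comparisons.

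RefSeq promoter windows were found for 6 members, 9 windows in all, and not for Trp63 and Trp53inp1. An exact p53 half-site (10 bases, named by its consensus, the same on both strands) was held by 1 window each of Trp53, Mdm2, Rchy1 and Ppm1d, against 8.36% of all 32851 windows. The stretches around these half-sites are shown because they belong to 2 genes that followed the allele number and 2 that did not, with the half-site in capitals:
Mdm2: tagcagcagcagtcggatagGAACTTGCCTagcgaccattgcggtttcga
Ppm1d: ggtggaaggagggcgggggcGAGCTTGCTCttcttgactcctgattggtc
Trp53: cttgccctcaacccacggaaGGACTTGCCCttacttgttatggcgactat
Rchy1: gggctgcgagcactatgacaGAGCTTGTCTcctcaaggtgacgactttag
They are at chr10:117710915-117710964 (minus strand), chr11:85311102-85311151 (plus strand), chr11:69580264-69580313 (plus strand) and chr5:91962617-91962666 (minus strand) of GRCm38.p6. The half-site began 186, 132, 75 and 90 bases before the start in this order, so a match was found both in genes ordered by allele number and in genes that were not.

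The patterns most like those of the members were sought among 12632 other tested genes by Pearson's r of log2(FPKM + 0.1) over the 6 mice, as a description without a test. Those nearest to Mdm2 were Zmat3 (r = 0.998), Ccng1 (r = 0.998) and Kifc1 (r = 0.997). Zmat3 and Ccng1 are known p53 target genes, and Ccng1 had an FPKM of 217 and 179 (wildtype), 80.6 and 99.7 (heterozygous) and 50.1 and 54.2 (homozygous). Nearest to Trp53inp1 were Msh6 (r = 0.999), Gse1 (r = 0.991) and Ptpdc1 (r = 0.991), and nearest to Trp63 were Jak2 (r = 0.996), Pfkfb1 (r = 0.995) and Nampt (r = 0.985). For Trp53 they were Gas2l1 (r = 0.997), Sbf1 (r = 0.993) and Cdk4 (r = 0.992). For Ppm1d the closest were Rab3d (r = 0.992), N4bp1 (r = 0.990) and Fam3c (r = 0.990), for Mdm4 they were Gnl3l (r = 0.994), Lgals8 (r = 0.993) and Gdpgp1 (r = 0.993), and for Rchy1 they were Ergic1 (r = 0.991), Fgfbp1 (r = 0.988) and Lysmd4 (r = 0.985). At a looser limit, 394 genes had an r of at least 0.9 with Mdm2 and 406 with Trp53inp1. The counts were lower for the other tested members, with 257 for Ppm1d, 171 for Trp53, 136 for Mdm4 and 77 for Rchy1. That of Trp63 lay between those of Mdm2 and Ppm1d. Many genes thus also followed Trp53, which differed little between genotypes, so such a set was not particular to Mdm2 and Trp53inp1. All values share the same 6 libraries.

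Of 10 kinases that act on p53 after DNA damage, among them Atm, Atr, Chek1 and Chek2, 0 had an adjusted p-value under 0.05 in limma between homozygous and wildtype mice, and 0 an unadjusted one, which 18% of all tested genes had. Their median log2 fold change was 0.22, beside -0.04 for all tested genes. The smallest p-value belonged to Atm, with a log2 fold change of 1.19 (limma adjusted p = 0.342), and mouse 47 had an FPKM of 3.87 against 0.621 to 1.38 in the other 5 mice. Csnk1d, Atr and Chek1 followed, with log2 fold changes of -0.20, 0.34 and 0.62 and adjusted p from 0.378 to 0.537.

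Of 14 other ligases and deubiquitinases of p53 or Mdm2, 0 passed adjustment in limma and 1 had an unadjusted p-value under 0.05, a smaller share than the 18% of all tested genes. That gene was Rfwd2 (also called Cop1), a ligase of p53, with an FPKM of 25.5 and 23.9 (wildtype), 22.6 and 20.04 (heterozygous) and 16.6 and 19.7 (homozygous). Relative to wildtype, homozygous mice had a log2 fold change of -0.45 (limma adjusted p = 0.206). Trim24 and Stub1, also ligases of p53, and Usp2, a deubiquitinase of Mdm2, had log2 fold changes of -0.36, -0.45 and 0.57 with adjusted p from 0.290 to 0.407. The median of the group was -0.15.

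In homozygous against wildtype mice, where 0.261% of tested genes were called lower, 1 of 15 tested binding partners, modifiers and feedback genes passed adjustment. It was Ccng1, which encodes cyclin G1, a partner of the phosphatase PP2A that acts on Mdm2, and it fell by 1.91 on the log2 scale (limma adjusted p = 0.0291). Trp53inp2, the relative of Trp53inp1, had a log2 fold change of -0.33 (limma adjusted p = 0.354), and Kat5 and Ppp1r13l had -0.24 and -0.31. The median of the group was -0.04, equal to that of all tested genes to 2 decimals.

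For comparison, 12 of 24 tested p53 target genes outside the 8 members passed adjustment between homozygous and wildtype mice, all lower, with a median log2 fold change of -1.12. Of all tested genes, 0.261% were called lower. At an unadjusted limma p under 0.05, which 18% of all tested genes had, 18 targets were lower and 1, Tigar, was higher (0.60). The other 5 did not reach it. Cdkn1a, the cell cycle inhibitor p21, had a log2 fold change of -4.00, Sesn2, a stress-induced inhibitor of mTORC1 signalling, -2.59, and Aen, a p53-induced nuclease, -2.49, with adjusted p of 0.00075, 0.0039 and 0.0047 from limma. Phlda3, an inhibitor of AKT signalling, had an FPKM of 115 and 100.3 (wildtype), 61.4 and 57.5 (heterozygous) and 28.6 and 25.0 (homozygous), with an adjusted p of 0.0126 from limma. The falls of Mdm2 and Trp53inp1 lay within the range of these genes, from -4.21 to 0.60, a wide range that reaches above 0. The count of called genes over these 4 pathway groups, 13 with Ccng1, was 3 without mouse 39, 1 without mouse 47, 8 without both, and 2 without either mouse 37 or mouse 40. The target list was chosen with earlier results of these data known.

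**Figure D5:**
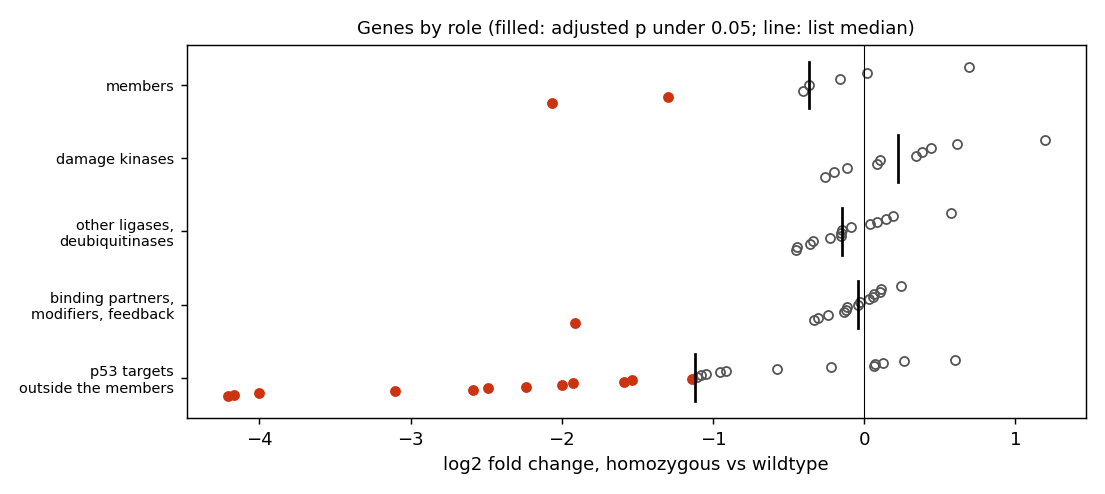
Homozygous against wildtype log2 fold changes for the tested genes of 5 groups, the 7 members, 10 damage kinases, 14 other ligases and deubiquitinases, 15 binding partners, modifiers and feedback genes, and 24 p53 targets. Each circle is a gene, filled where the adjusted p is under 0.05, and the short line is the median of the group. Filled circles are Mdm2 and Trp53inp1 among the members, Ccng1 among the feedback genes and 12 of the targets.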

How the data were processed

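Prostate RNA of 6 mice was measured, 2 per genotype. Per the study's methods, the authors made stranded mRNA libraries and sequenced read pairs, aligned them to GRCm38 (mm10) with HISAT and quantified genes with Cufflinks. The submitters' processing notes also name Cuffnorm. Tool versions and the annotation are not given in the sources used here. The deposited values are FPKM per gene, not counts, so no count test was used. Low values give only an estimate of relative depth, which includes any scaling between libraries.

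The 8 members and all gene lists were chosen with earlier results of these data known. Genes whose mean FPKM reached 1 were fitted as log2(FPKM + 0.1) with limma 3.58.1 in R 4.3.3 (3 genotypes, or the allele number as a slope, eBayes with intensity trend), with Benjamini-Hochberg adjustment over 13818 genes and a threshold of 0.05. Single values were tested by exact permutation over 90 arrangements. On simulated data with 200 of 13818 genes changed, the comparison of homozygous with wildtype mice recovered 72% of the genes given a log2 change of 2. It recovered 27% of the genes given 1, and the allele slope recovered 81% and 44%. Of the genes called, 4.81% (comparison) and 6.02% (slope) were unchanged ones. The simulated noise was normal with spreads shuffled over genes, so any relation of spread to level, which the intensity trend uses, was removed. These rates may therefore differ from those in the real data. Named genes were all members, up to 4 genes per pathway list with the smallest p-value between homozygous and wildtype mice, and the 3 genes most like each tested member by Pearson's r, leaving out predicted and RIKEN names. Of the 47719 identifiers, 47219 are in GENCODE release M21 (GRCm38), used for positions. For 124 symbols shared by several identifiers, the one with the highest mean FPKM was used. Python 3.11.15 and biopython 1.88 were used for sequences. The alternatives were other pseudocounts, filters and scalings, no intensity trend, fits of 2 genotypes only and leaving out mice. A luminal marker is not reported here and was left out of the sum.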

Additional observations from a re-analysis of the deposited data

How the results depend on the processing

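No paired analysis was possible because the mice are different animals and no genotypes share a replicate number. The number of members called between homozygous and wildtype mice was 2, and it was 0 without a filter, with quantile normalization, without the intensity trend, with only the 4 mice compared and without mice 39 and 47 together (an alternative chosen after seeing the data), and from 0 to 1 when each mouse was left out. The slope per allele called 2 members, 0 without a filter and without mice 39 and 47 together, 1 with quantile normalization and without the intensity trend, and 0 to 1 when each mouse was left out. Mdm2 and Trp53inp1 kept a negative sign in each of these fits. Pathway genes called numbered 13, against 3 without a filter, 8 without the intensity trend, 2 with only the 4 mice compared, 8 without both mice, and 1 to 11 when each mouse was left out. The sign of Trp53 turned to 0.0033 with quantile normalization (homozygous against heterozygous), to -0.23, -0.08 and -0.11 without both mice (homozygous and heterozygous against wildtype, and the slope), and to a rank correlation with the allele number of -0.12. When each mouse was left out, the changes of Trp53 ran from -0.13 to 0.17 (homozygous against wildtype), -0.081 to 0.23 (heterozygous against wildtype), -0.15 to 0.041 (homozygous against heterozygous) and -0.065 to 0.067 (slope). Those of Rchy1 ran from -0.35 to 0.027 (homozygous against wildtype) and -0.16 to 0.034 (slope), and that of Mdm4 from -0.10 to 0.35 (homozygous against heterozygous). The cause of these differences was not tested. With 2 mice per genotype, moderate changes can go uncalled, and where 1 mouse of a genotype was left its spread was assumed to equal that of the others.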

Other observations

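The seminal vesicle genes Svs3a, Svs6 and Pate4 were highest in homozygous mouse 47, while Svs2, Svs4 and Svs5 were listed at 0 there. In that mouse Svs3a had an FPKM of 7321, Svs6 of 26147 and Pate4 of 16862. In the other 5 mice, Svs3a was between 7.79 and 324, Svs6 between 28.6 and 1021 and Pate4 between 125 and 4895.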
